A study of Mus musculus with 35 samples.

Results

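The miRNAs of the miR-34 and miR-449 groups were followed in the livers of mice after a single injection of ENU (N-ethyl-N-nitrosourea), an alkylating agent that damages DNA. Every miR-34 or miR-449 assay of the PCR array, with any letter or arm, was taken, with no threshold on its values, which gave 7 of the 376 miRNA assays. These were mmu-miR-34a, mmu-miR-34b-5p, mmu-miR-34b-3p and mmu-miR-34c, and mmu-miR-449a, mmu-miR-449b and mmu-miR-449c, mostly written without the mouse prefix (mmu). Female Big Blue mice, a transgenic line that carries a bacterial mutation reporter in every cell, were 6 months old and received ENU at 120 mg/kg or the vehicle dimethylsulfoxide (DMSO) by intraperitoneal injection. Livers were taken 1, 3, 7 and 15 days after treatment from 5 ENU mice each, and on days 30 and 120 from 4 ENU mice each (post-treatment days, PTDs), and 7 DMSO mice served as 1 control group throughout. The sample labels place 3 of the controls at day 1 and 4 at day 30, whereas the methods of the study give 4 and 3, and each of the 35 mice has 1 array. The transgene was carried by controls and treated mice alike.

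The genes of miR-34 are direct transcriptional targets of p53, the tumor suppressor that is activated by DNA damage, and their products repress mRNAs of cell cycle and survival proteins. The genes of miR-449 lie in the host gene Cdc20b and are best known from epithelia that form motile cilia. A miRNA recognizes its targets mainly through the seed, a short stretch near its 5′ end, so miRNAs with the same seed are predicted to share many targets.

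The sequences below are shown because the seed is what joins the members of the 2 clusters, and because miR-34b-3p, from the opposite arm of the miR-34b hairpin, has another. They are mature mouse miRNAs from RefSeq (GRCm38.p6), written 5′ to 3′ with the seed, bases 2 to 8, in capitals. The entry of miR-34c is the first 30 bases of its hairpin, with the 1 copy of the same 7 letters in capitals, at bases 14 to 20. Assay names without an arm were matched to the 5p arm, and miR-449b has no entry here.
mmu-miR-34a: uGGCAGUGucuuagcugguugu
mmu-miR-34b-5p: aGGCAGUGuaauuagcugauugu
mmu-miR-34c (start of hairpin): agucuaguuacuaGGCAGUGuaguuagcug
mmu-miR-449a: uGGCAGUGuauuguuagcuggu
mmu-miR-449c: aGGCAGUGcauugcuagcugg
mmu-miR-34b-3p: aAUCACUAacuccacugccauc

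Of the 376 assays, 274 matched a mature entry, and 4 of these had the seed GGCAGUG, namely miR-34a, miR-34b-5p, miR-449a and miR-449c. No other of the 1679 mature names in the table had it. Over its whole length, seed included, miR-449a was as close to miR-34a as to miR-449c. It had 18 aligned identical bases with miR-34a, with the first 9 in common, and 18 with miR-449c. By contrast, miR-449c had 15 with miR-34a and 16 with miR-34b-5p. Mir34a lies at chr4:150068454-150068555 (+), in no other gene. Mir34b (chr9:51103562-51103645) and Mir34c (chr9:51103034-51103110) lie on the minus strand, 451 bases apart and inside the spans of Hoatz and Btg4. Mir449c (chr13:113035983-113036091), Mir449b (chr13:113037419-113037498) and Mir449a (chr13:113037534-113037624) lie within 1 gene, Cdc20b, with gaps of 1327 and 35 bases. An older symbol of Mir449b is also listed for Mir449c, so the names of these 2 assays are less certain than the others.

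Expression is given as -ΔCt, the mean threshold cycle (Ct) of 4 reference small RNAs minus the Ct of the miRNA on the same array. On this log2 scale a higher value stands for more RNA, and the difference of 2 group means is called a log2 fold change. Because every assay has its own primers, levels were compared between mice and not between assays. The liver miRNA miR-122 had the lowest mean Ct of the 376 assays, at 14.5, as a liver sample would have. In 1 array, PTD 15 replicate 1, its -ΔCt was 3.29, against at least 6.13 in the others. In whole liver, a change in the cells present and a change of RNA per cell cannot be told apart. The mean Ct of the members was 21.7 for miR-34a, 26.5 for miR-34b-5p, 29.3 for miR-449c, 30.0 for miR-34c, 30.5 for miR-449b, 30.5 for miR-34b-3p and 33.2 for miR-449a. The miR-449a assay thus read latest, with a Ct between 30.4 and 35.5 in 34 arrays and none given in PTD 15 replicate 1.

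The miR-34 members with the seed moved together and over a wide range, while miR-34b-3p did not move with them. For mmu-miR-34b-5p, the 7 controls lay between -6.56 and -5.67 with a median of -6.23. The 5 mice at PTD 1 had -5.44, -5.72, -5.13, -4.56 and -4.13. At PTD 7 they had -3.08, -3.45, -3.10, -3.21 and -2.91. At PTD 1 the second mouse was still within the control range, and by PTD 7 all of them stood far above it with little spread. The mice at PTD 3 ranged from -4.72 to -2.76, those at PTD 15 from -3.84 to -3.15 and those at PTD 30 from -4.48 to -3.54, all above every control. At PTD 120 the 4 values were -5.64, -5.77, -5.78 and -4.77, of which 2 lay above the control range.

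For mmu-miR-34c, from the same cluster, the controls lay between -9.78 and -8.54 and the 5 mice at PTD 7 between -7.02 and -6.67. The groups overlapped at PTDs 1, 30 and 120 and were apart at PTDs 3, 7 and 15. For mmu-miR-34a, the controls lay between -1.79 and -0.66, and the mice at PTD 1 between -0.49 and 0.78. All 5 were above every control already at PTD 1. At PTD 7, miR-34a was 1.56, 1.15, 1.58, 1.58 and -2.51, so the fifth mouse fell below all controls. In that mouse miR-34b-5p, at -2.91, and miR-34c, at -6.67, were the highest of their group. In the same mouse miR-449a, at -11.68, was the lowest of its group, though close to the next at -11.56 and -11.51, and miR-449c, at -6.17, the highest.

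**Figure D1:**
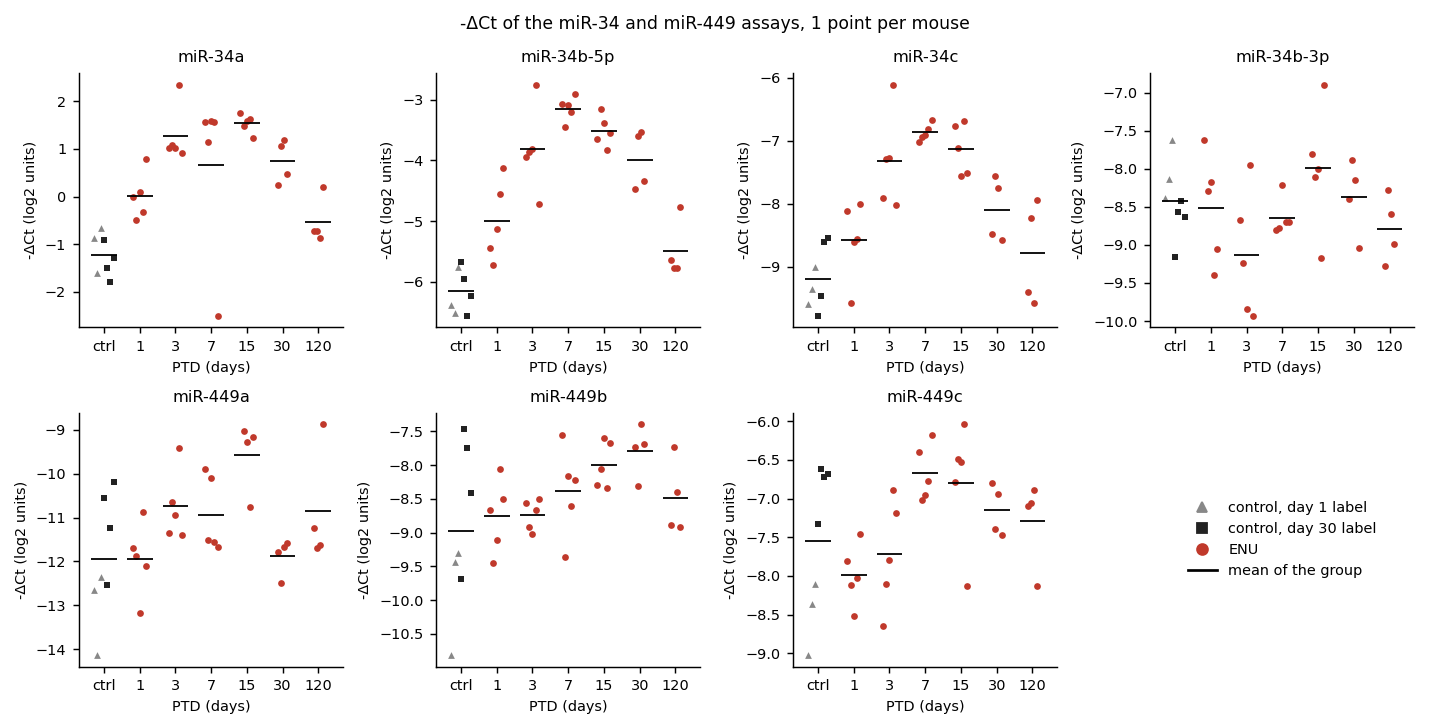
Expression (-ΔCt, log2 scale) of the 7 members in each of the 35 mice, by control group and PTD, with grey triangles for controls labelled day 1, black squares for controls labelled day 30, red circles for ENU mice and a line at each group mean. The 5 values of miR-34b-5p at PTD 7, between -3.45 and -2.91, sit above all controls, whereas miR-34b-3p overlaps its controls at every PTD and the controls of miR-449a spread from -14.13 to -10.19.

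A miRNA was counted as a differentially expressed miRNA (DEM) where limma gave an unadjusted p value under 0.01 and the fold change was above 2, the thresholds of the study. Of all 376 miRNAs, 1.33% were DEMs at PTD 1, then 2.13%, 9.84%, 11.4%, 1.6% and 1.33% at the later PTDs in order. Of the 7 members, 2, 3, 3, 4, 3 and 0 were DEMs, all higher after ENU, while the share of all miRNAs called higher was 0.532%, 1.33%, 2.39%, 6.65%, 1.6% and 1.33%. At PTD 1 the only 2 miRNAs called higher on the array were miR-34a and miR-34b-5p, although neither passed after Benjamini-Hochberg adjustment (adjusted p = 0.430 and 0.613, limma). With an adjusted p under 0.05 in place of the unadjusted p, 0, 3, 2, 4, 2 and 0 members remained, against 0%, 0.798%, 7.45%, 10.4%, 0.532% and 0% of all miRNAs. Every ENU mouse lay above every control for 1, 3, 2, 3, 2 and 0 members, and for 0.266%, 1.6%, 2.13%, 7.71%, 1.33% and 0.798% of all miRNAs. The count at PTD 1 was 0 with only the controls labelled day 1, within 1 run period and when blocked on replicate number. The log2 fold changes of miR-34b-5p and miR-34a, 1.16 and 1.24 against all controls, were then 1.23 and 1.06 with the day 1 label, 1.12 and 1.14 within a run period and 0.91 and 1.06 with the block. The count was 1 without PTD 1 replicate 4 or 5, without the second control labelled day 1 or without the third labelled day 30. At PTD 7, the call of miR-34a (log2 fold change of 1.91, limma, adjusted p = 0.0796) was lost in 10 of 12 fits that left out 1 mouse, though the lowest value in these fits was 1.68. It was kept without replicate 5, the low mouse, at 2.70, and without the third control labelled day 1, at 2.0. All 6 comparisons use the same 7 controls.

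Ranked by log2 fold change among the 376 miRNAs, miR-34b-5p stood at place 2, 4, 1, 4, 2 and 112 over the 6 PTDs, and miR-34a at place 1, 2, 6, 2, 3 and 102. The rank of miR-34c was 11, 5, 3, 9, 32 and 199. At PTD 30, its 4 values of -8.49, -7.56, -7.74 and -8.59 gave a log2 fold change of 1.10 ± 0.36 (SE, limma, adjusted p = 0.435), with 3 above every control (exact permutation p = 0.00909). This call was lost in 8 of 11 fits that left out 1 mouse, with values from 0.92 to 1.26. This member came down earlier than the other 2 in rank, but the change of miR-34b-5p minus that of miR-34c at PTD 30, 1.07 (95% confidence interval, 0.24 to 1.89), did not pass adjustment (exact permutation test, adjusted p = 0.0545).

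Among the miR-449 members, miR-449a was a DEM at PTD 15 and the others at no PTD. For mmu-miR-449a, the 3 controls labelled day 1 had -12.65, -14.13 and -12.35, and the 4 labelled day 30 had -10.54, -12.54, -11.24 and -10.19. At PTD 15, the 4 mice with a value had -9.03, -9.28, -10.77 and -9.17. Of these, 3 lay above every control, and replicate 4 lay within the control range. The log2 fold change was 2.39 ± 0.69 (SE, limma, p = 0.00444, adjusted p = 0.0396), a 5.23-fold higher mean (exact permutation test, p = 0.0152). The call was lost without PTD 15 replicate 2, at a log2 fold change of 2.21, without replicate 3, at 2.29, and without replicate 5, at 2.25. It was also lost with the methods' t-test, with a covariate from the reverse transcription control wells, at 1.91, with the replicate number as a block, at 2.32, and where the well without a Ct was set to 40 cycles, at 0.74, or to 0, at 8.74.

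At the other PTDs most miR-449a values were within the control range. They were -11.69, -11.87, -13.19, -10.87 and -12.10 at PTD 1 and -11.35, -10.64, -10.93, -9.41 and -11.40 at PTD 3. At PTD 7 they were -9.90, -11.51, -10.09, -11.56 and -11.68, with 2 mice above every control. The log2 fold change was 0.0064 at PTD 1, 1.21 ± 0.63 at PTD 3 (SE, exact permutation p = 0.116) and 1.00 ± 0.63 at PTD 7 (SE, exact p = 0.193). At PTD 30 the values of -11.79, -12.50, -11.66 and -11.58 were again close to the control mean of -11.95 ± 1.38 (SD, n = 7). At PTD 120 they were -11.23, -11.70, -11.62 and -8.87, and the fourth mouse alone lay above the controls.

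For miR-449c, the controls labelled day 1 had -9.02, -8.36 and -8.10, and those labelled day 30 had -7.33, -6.61, -6.72 and -6.68. The mice at PTD 3 had -8.65, -8.10, -7.79, -6.89 and -7.18, and those at PTD 7 had -6.40, -7.02, -6.95, -6.77 and -6.17. The mice at PTD 3 all fell within the control range, and 2 of the 5 at PTD 7 lay just above it. The log2 fold change ran from -0.44 at PTD 1 to 0.88 ± 0.44 at PTD 7 (SE, exact permutation p = 0.0833). For miR-449b, the controls ranged from -10.81 to -7.46 with a median of -9.30, and the highest mean after ENU was -7.78 ± 0.38 (SD, n = 4) at PTD 30. Its log2 fold change there was 1.19 ± 0.57 (SE, exact permutation p = 0.0970), with 1 of 4 mice above every control.

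The median log2 fold change of the 3 miR-449 members was 0.0064, 0.24, 0.88, 0.98, 0.40 and 0.49 over the 6 PTDs, and that of the 3 miR-34 members with the seed was 1.16, 2.34, 2.33, 2.64, 1.98 and 0.67. The median over all 376 miRNAs was -0.37, 0.019, 0.19, 0.36, 0.54 and 0.46. When each array was scaled to its own median Ct, the last series became 0.0059, 0.31, 0.49, 0.39, 0.13 and 0.044. At PTDs 30 and 120 the miR-449 medians were thus near or below the median of the whole array, and those of the miR-34 members were above it. Under this scaling, miR-449c became a DEM at PTD 7 (log2 fold change of 1.18, limma, adjusted p = 0.00398), and miR-449a was at -0.34 at PTD 30. The calls of miR-34a at PTD 7 (2.21, limma, adjusted p = 0.0374, with an unadjusted p above 0.01) and of miR-34c at PTD 30 (0.69, limma, adjusted p = 0.799) were lost. The share of all miRNAs that were DEMs was then 0.798%, 4.79%, 18.1%, 14.6%, 1.33% and 1.33%.

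**Figure D2:**
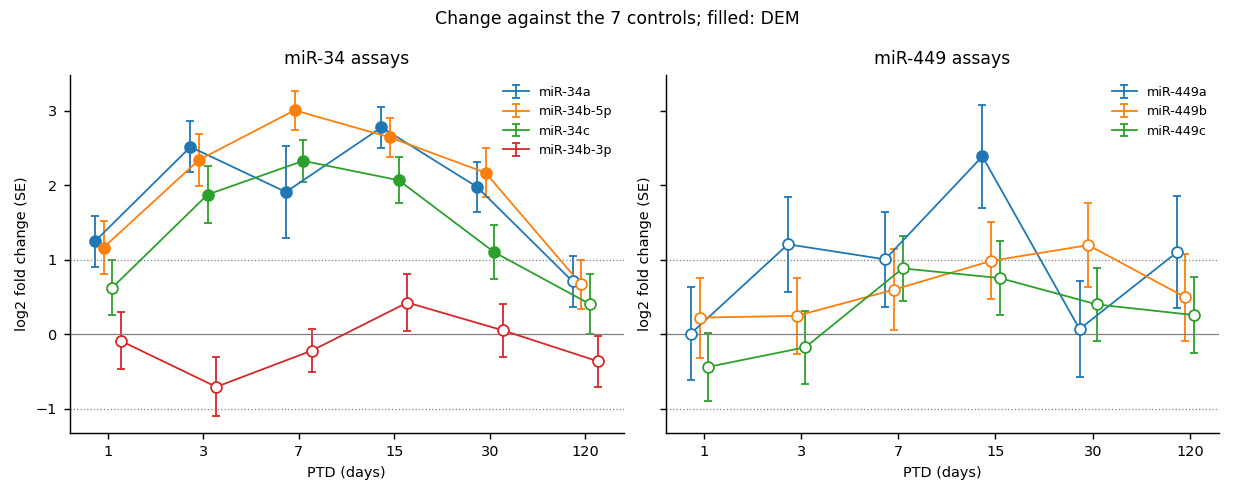
Log2 fold change against the 7 controls, with SE bars, by PTD (days, evenly spaced) for the 4 miR-34 assays and the 3 miR-449 assays, with filled points for DEMs and dotted lines at a log2 fold change of 1 and -1. The miR-34 members with the seed form a raised course from PTD 3 to PTD 30, and among the miR-449 members the only filled point is miR-449a at PTD 15, at 2.39.

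The miR-449 assays differed among the controls far more than the miR-34 seed members did. The controls labelled day 30 were higher than those labelled day 1 by 1.92 for miR-449a (exact permutation test, p = 0.0857), by 1.66 for miR-449c (exact p = 0.0286) and by 1.52 for miR-449b (exact p = 0.114). The same difference was 0.12 for miR-34b-5p, 0.22 for miR-34c and -0.33 for miR-34a. With 3 mice against 4, the smallest p the exact test allows is 0.0286. For miR-449c every control labelled day 30 lay above every control labelled day 1, as it did for 47.9% of all 376 miRNAs, whose median difference was 1.00. The opposite separation held for 0.532% of all miRNAs, namely 2, of which 1 was miR-34b-3p with a difference of -0.65. All controls labelled day 1 were run in the first of 3 run periods, together with all mice of PTDs 3, 7 and 15 and 4 of the 5 at PTD 1, and the controls labelled day 30 were run later. The day label and the run period of the controls cannot be told apart.

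The choice of controls therefore set the size of each miR-449 change. The 3 controls labelled day 1 were run in the same period as all arrays of PTDs 3, 7 and 15, a period that joins February and March. The Ct difference between their reverse transcription control wells was -0.26 to -0.20. At PTD 3 it was -0.29 and -0.19 in replicates 1 and 2 and 0.15 to 0.17 in replicates 3 to 5. It was -0.03 to 0.21 over PTDs 7 and 15, so a shared period need not mean a shared run. Against the 3 controls labelled day 1 alone, miR-449a had a log2 fold change of 2.30 at PTD 3 (limma, adjusted p = 0.0786), 2.10 at PTD 7 (adjusted p = 0.0169) and 3.48 at PTD 15 (adjusted p = 0.00479), and was a DEM at all 3. On the same controls, miR-449c was a DEM at 1.83 at PTD 7 (limma, adjusted p = 0.00479) and 1.70 at PTD 15 (adjusted p = 0.0178), and miR-449b at 1.85 at PTD 15 (adjusted p = 0.00763). At PTD 30, miR-449c at 1.35 (limma, adjusted p = 0.0168) and miR-449b at 2.06 (adjusted p = 0.0114) were DEMs too, but the arrays of PTD 30 were run in another period than these controls. Within their own run period, miR-449c was at -0.18 and miR-449b at 0.79, and neither was called (limma, adjusted p = 0.998 for each). With these controls 1.06%, 7.98%, 33%, 40.4%, 37.5% and 27.9% of all miRNAs were called over the 6 PTDs, so many other miRNAs gained a call too. Within a run period, the share was 0.798% at PTD 30 and 0% at PTD 120. Against only the 4 controls labelled day 30, miR-449a was at 0.38, 0.18 and 1.56 at PTDs 3, 7 and 15 (limma, adjusted p = 0.161 at PTD 15), and none of the 3 members was called there. The share of all miRNAs called was 13%, 6.12%, 10.1%, 9.04%, 1.33% and 1.6%, and at PTD 1 miR-449c was called lower, at -1.15 (limma, adjusted p = 0.0687). With either set, miR-34b-5p and miR-34c were DEMs at PTDs 3, 7 and 15 and miR-34a at PTDs 3 and 15, while at PTD 7 miR-34a was called with neither (1.72 with the day 1 label, 2.05 with the day 30 label).

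**Figure D3:**
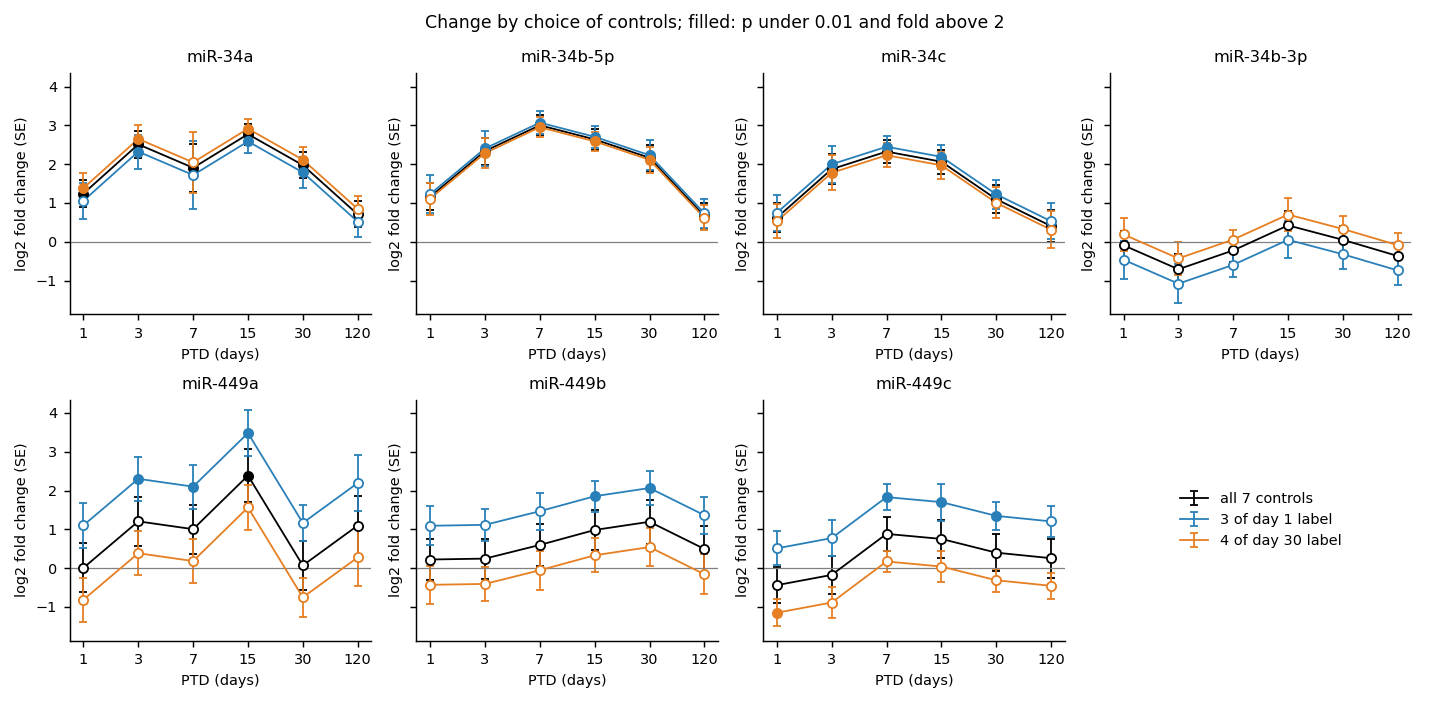
Log2 fold change with SE of each member by PTD (days) against all 7 controls (black), the 3 labelled day 1 (blue) and the 4 labelled day 30 (orange), with filled points where p was under 0.01 and the fold change above 2. The 3 courses lie close together for miR-34b-5p and miR-34c and apart for the 3 miR-449 members, where miR-449a at PTD 15 is 3.48, 2.39 or 1.56 depending on the controls.

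To compare miR-449 with miR-34 directly, the difference between 2 assays was taken on each array, where the reference RNAs cancel. With miR-449a and miR-449c set against miR-34a, miR-34b-5p and miR-34c at 6 PTDs, 36 comparisons were made, and miR-449b was left out as its seed was not read. Against all 7 controls, the miR-449 member changed less in 32 of the 36, and 16 had an exact permutation p under 0.05. It changed less in 21 of the 36 with only the controls labelled day 1, and in all 36 with only those labelled day 30. After adjustment over the 36, 4 passed, all with miR-449c. For miR-449c minus miR-34b-5p, the controls had -2.64, -1.84 and -2.34 (labelled day 1) and -1.65, -0.66, -0.16 and -0.45 (labelled day 30). The mice at PTD 3 had -4.70, -4.24, -3.99, -4.13 and -2.47, and those at PTD 7 had -3.32, -3.57, -3.85, -3.56 and -3.26. All mice of PTD 7 and 4 of 5 at PTD 3 were below every control.

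The change of miR-449c minus that of miR-34b-5p was -2.52 at PTD 3 (exact p = 0.00379) and -2.12 at PTD 7 (exact p = 0.00253). At PTD 3 the difference was -2.05 against miR-34c and -2.69 against miR-34a (exact p = 0.00505 for each), and all 4 had an adjusted p of 0.0455. Leaving out single mice gave 0 to 3 passing pairs at PTD 3 and 0 to 2 at PTD 7. Without PTD 3 replicate 3, whose deposited values differ from those in the study's own list, 0 passed at PTD 3. In that mouse miR-449c minus miR-34b-5p was -3.99, near the group mean of -3.91. Leaving it out thus moved the difference little, in a group with 1 mouse fewer. When only the controls labelled day 1 were used, the 4 differences were smaller, -1.63, -1.24, -1.23 and -1.55 in the same order, and none passed, where 5 mice against 3 allow no exact p under 0.0179 before adjustment. For miR-449c minus miR-34b-5p at PTD 7, every mouse was still below every control labelled day 1. With only those labelled day 30, 3, 6, 3 and 3 of the 6 pairs passed at PTDs 1, 3, 7 and 15. The share of all miRNAs passing against miR-34 with these controls was not counted. The controls labelled day 30 were higher than those labelled day 1 by a median of 1.00 over all 376 miRNAs, and by -0.33 to 0.22 for the miR-34 seed members. Many other miRNAs may therefore fall against miR-34 with these controls too.

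A change smaller than that of miR-34 was not particular to miR-449c. When every array was scaled to miR-34b-5p and all other miRNAs were fitted in limma, 73.9%, 96.3%, 96.8%, 93.3%, 84.8% and 0% of them had an adjusted p under 0.05 over the 6 PTDs, all of them lower relative to miR-34b-5p. Scaled to miR-34a, the share was 73.9%, 96.5%, 20%, 93.3%, 47.2% and 0%, and scaled to miR-34c it was 25.6%, 90.9%, 93.3%, 79.2%, 0% and 0%, again all lower. In these fits 2, 3, 4, 3, 3 and 0 of the 6 seed pairs passed.

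For miR-449a against all 7 controls, no difference from a miR-34 member passed adjustment in the exact test. At PTD 15, miR-449a minus miR-34b-5p was -5.88, -5.90, -6.93 and -5.61 in the 4 mice, against -7.61 to -3.96 in the controls. All 4 fell inside the control range, and the change of miR-449a minus that of miR-34b-5p was -0.29 (95% confidence interval, -1.87 to 1.30). It was 0.41 against miR-34c (-1.35 to 2.17) and -0.33 against miR-34a (-2.11 to 1.44). These intervals are wide, so a change 2-fold or more below or above that of miR-34 is within them. At PTD 7, miR-449a minus miR-34b-5p was -2.0 (-3.50 to -0.50, exact p = 0.0189, adjusted p = 0.0671), and at PTD 30 it was -2.10 (-3.74 to -0.46, exact p = 0.0242, adjusted p = 0.0671). In limma scaled to the miR-34 member, over all miRNAs, these 2 differences passed (adjusted p = 0.00555 and 0.0119), as did those from miR-34c at PTD 7 (-1.32, adjusted p = 0.0471) and from miR-34a at PTD 30 (-1.91, adjusted p = 0.0383). With only the controls labelled day 30, the exact test passed at PTD 3 for miR-34b-5p (-1.91), miR-34c (-1.40) and miR-34a (-2.27), and at PTD 7 for miR-34b-5p (-2.77), each with an adjusted p of 0.0238. With only those labelled day 1, the same 3 differences at PTD 3 were -0.10, 0.30 and -0.024, those at PTD 15 were 0.74, 1.38 and 0.95, and at PTD 7 the differences were -0.97, -0.35 and 0.38, and none passed.

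The other arm of miR-34b was the contrast within the miR-34 group. For miR-34b-3p, the controls had -8.39, -8.13, -7.62, -9.16, -8.57, -8.43 and -8.63, the mice at PTD 3 had -8.68, -9.23, -9.85, -7.94 and -9.93, and those at PTD 7 had -8.80, -8.78, -8.21, -8.70 and -8.70. At PTD 7 all 5 were within the control range, and at PTD 3, 3 of 5 lay below it. Its log2 fold change ran from -0.71 ± 0.39 at PTD 3 (SE, exact permutation p = 0.0909) to 0.42 ± 0.38 at PTD 15 (SE, exact p = 0.278), with no call at any PTD, and its rank among the 376 miRNAs lay between 100 and 349.

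The 5p arm minus the 3p arm of miR-34b was 2.00, 1.61 and 1.86 in the controls labelled day 1 and 3.48, 2.62, 1.87 and 2.40 in those labelled day 30. It was 4.73, 5.38, 6.04, 5.19 and 5.21 at PTD 3 and 5.72, 5.33, 5.11, 5.49 and 5.79 at PTD 7. Every mouse at these PTDs was above every control. The change of the 5p arm minus that of the 3p arm was 1.25, 3.05, 3.23, 2.22, 2.12 and 1.03 over the 6 PTDs. At PTDs 3 and 7 the exact p was 0.00126, the smallest that 5 mice against 7 allow (adjusted p = 0.00909 over 36 comparisons within miR-34), and the adjusted p was 0.0121 at PTDs 15 and 30. At PTDs 1 and 120 it was 0.0960 and 0.0898. With only the 3 controls labelled day 1 the difference at PTD 3 was 3.49 (exact permutation test, adjusted p = 0.0791), and with only the 4 labelled day 30 it was 2.72 (exact, adjusted p = 0.0714). In both, every mouse at PTD 3 was above every control, so the exact p was the smallest that 5 mice allow against 3 (0.0179) or 4 (0.00794), and it did not pass after adjustment over 36. Scaled to miR-34b-3p in limma, 0%, 0.8%, 5.07%, 5.6%, 0% and 0% of the other miRNAs differed with an adjusted p under 0.05.

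Of the 36 comparisons within miR-34, 13 passed adjustment, and each of these had miR-34b-3p as 1 of its assays. The change of miR-34a minus that of miR-34b-5p was between -0.19 and 0.17 at all PTDs other than 7, with an interval at PTD 3 of -0.25 to 0.60 and at PTD 30 of -0.58 to 0.20. On single arrays, miR-34a minus miR-34b-5p was 4.71, 4.68, 4.73 and 4.80 at PTD 30 and between 4.23 and 5.63 in 34 arrays. In the other array, PTD 7 replicate 5, it was 0.41.

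**Figure D4:**
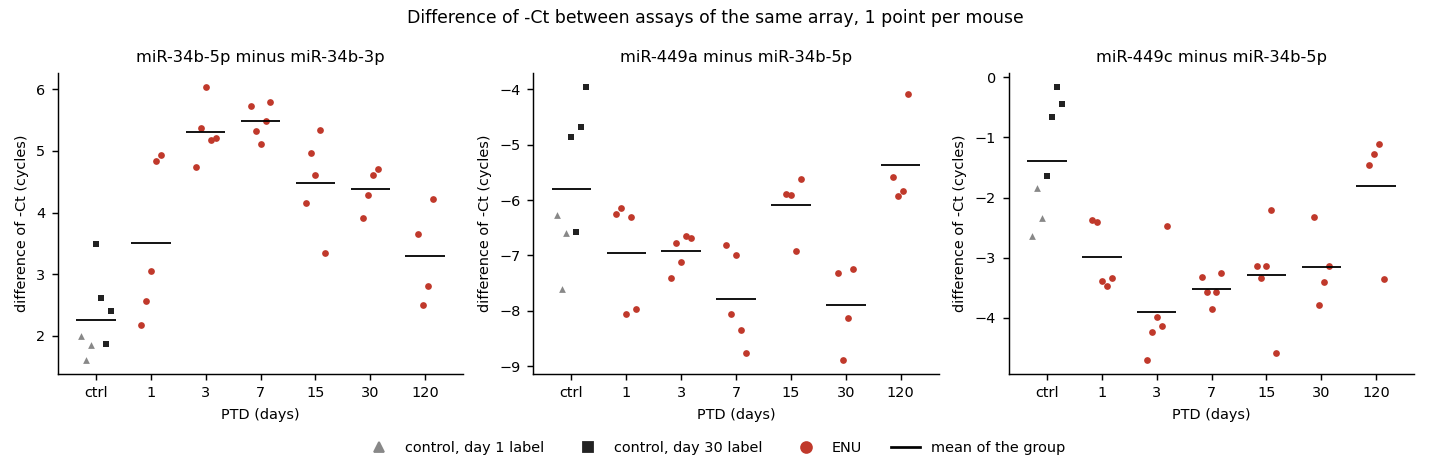
Difference between 2 assays on the same array (log2 scale) in each mouse, by group, for miR-34b-5p minus miR-34b-3p, miR-449a minus miR-34b-5p and miR-449c minus miR-34b-5p, with controls by day label and ENU mice as separate marks and a line at each group mean. The 2 arms of miR-34b are furthest apart at PTDs 3 and 7, where every mouse is above 4.7 and every control below 3.5, while miR-449a minus miR-34b-5p at PTD 15 lies within the controls.

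Neighboring PTDs were also compared without the controls. From PTD 1 to PTD 3, where 2.93% of all miRNAs were called, miR-34a was higher by 1.27 ± 0.40 (SE, limma, adjusted p = 0.311). All 5 mice were above those of PTD 1 (exact permutation p = 0.00794), a separation that 2.13% of all miRNAs showed. The call was lost in 9 of 10 fits that left out 1 mouse, with values from 1.0 to 1.46. No member was called from PTD 3 to 7 or from PTD 7 to 15, where 1.06% and 1.6% of all miRNAs were. From PTD 15 to PTD 30, where 19.1% of all miRNAs were called and 4.26% were called lower, miR-449a fell by 2.32 on the log2 scale (SE = 0.44, limma, adjusted p = 0.00558). All 4 mice at PTD 30 were below the 4 with a value at PTD 15, a separation that 5.32% of all miRNAs showed. The groups were also apart for miR-34a, at -0.80, and for miR-34c, at -0.97 (exact permutation p = 0.00794 and 0.0159), though neither was called. The fall of miR-449a was the 1 call among the members there. It was lost with the well without a Ct at 40 cycles, at -0.67, and with the reverse transcription control as covariate, at -2.20. All arrays of PTD 15 were run in the first period and all arrays of PTD 30 in the second, so time after treatment and run period cannot be told apart in this step. From PTD 30 to PTD 120, within 1 run period, miR-34b-5p fell by 1.5 and miR-34a fell by 1.27 on the log2 scale, both with a limma adjusted p of 0.659, where 0.798% of all miRNAs were called. For both, all 4 mice at PTD 120 were below those of PTD 30 (exact permutation p = 0.0286, the smallest possible), as 1.86% of all miRNAs were. The call of miR-34a was lost in 5 of 8 fits that left out 1 mouse, with log2 differences between -1.51 and -1.12.

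Ordered by group mean, miR-34a, miR-34b-3p and miR-449a were highest at PTD 15, miR-34b-5p, miR-34c and miR-449c at PTD 7, and miR-449b at PTD 30. In none of the 7 orders did 2 neighboring groups have ranges apart. The control group was the lowest for miR-34a, miR-34b-5p, miR-34c, miR-449a and miR-449b, while PTD 1 was the lowest for miR-449c and PTD 3 for miR-34b-3p.

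Likeness between miRNAs over the arrays is a description, since arrays share groups and run periods. Over the 35 arrays, the miRNA closest to miR-34b-5p was miR-34c (Pearson's r = 0.882), followed by miR-185 (0.819) and miR-484 (0.789). The same miR-185 (0.868) and miR-484 (0.828) followed for miR-34c, and miR-34a was closest to miR-34b-5p (0.768), miR-423-5p (0.759) and miR-34c (0.705). No miR-34 member was among the 3 closest to a miR-449 assay. Over 34 arrays miR-449a was closest to miR-770-5p (0.711), miR-188-5p (0.685) and miR-484 (0.683), and its r with the 3 miR-34 seed members was between 0.482 and 0.493. For miR-449b the closest were miR-126-5p (0.719), miR-30d (0.691) and miR-762 (0.690), and for miR-449c they were miR-465a-5p (0.733), miR-762 (0.720) and miR-770-3p (0.713). The 2 latter assays had an r of 0.601 with each other. The arms of miR-34b had an r of 0.026, and the 3 closest to miR-34b-3p were miR-495 (0.515), miR-763 (0.433) and miR-483* (0.398).

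Lists of other miRNAs tied to p53 are given for comparison. Of 10 miRNAs listed as induced by p53 (miR-192, miR-194, miR-215, miR-107, miR-15a, miR-16, miR-200a, miR-141, miR-429 and miR-22), 0 were DEMs at any PTD, where 1.33% to 11.4% of all miRNAs were, so a count of 0 is near that background. An unadjusted limma p under 0.05 was found for 0, 2, 2, 3, 1 and 0 of them. The list median of the log2 fold change was -0.67, 0.21, 0.25, 0.51, 0.59 and 0.39. It stood near the median of all miRNAs at each PTD from 3 to 120. The smallest p was that of miR-107 at PTD 15, with a log2 fold change of 0.79 ± 0.23 (SE, limma, adjusted p = 0.0396), under 2-fold. Of 5 miRNAs listed as acting on the p53 mRNA (miR-125b-5p, miR-125a-5p, miR-504, miR-30d and miR-25), 0 were DEMs and 0 had an unadjusted limma p under 0.05, again near the background for a short list, with a list median between -0.53 and 0.50. The smallest p was that of miR-25 at PTD 15, with a log2 fold change of 0.66 ± 0.40 (SE, limma, adjusted p = 0.286).

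Because miR-449 is known from epithelia, 3 epithelial miRNAs of the bile duct (miR-200a, miR-141 and miR-429) are given beside it. All 3 had a Ct in the arrays, with a mean between 25.3 and 29.4. Their summed level on the log2 scale of -ΔCt lay between -4.06 and -1.37 in the controls, between -3.23 and -2.32 at PTD 15 and between -2.66 and -0.87 at PTD 30. The mice at PTD 15, where miR-449a was highest, thus lay within the controls. The highest median of this sum was -1.63 at PTD 30, where miR-449b was highest, against -2.92 in the controls. Each sum adds the levels before the log2, so it mostly follows the assays of lowest Ct and is not an agreement of several markers. For the erythroid pair that is miR-451, with a mean Ct of 18.9 against 27.4 for miR-144. The summed level of the 2 erythroid miRNAs (miR-144 and miR-451) was between 2.09 and 3.43 in the controls, with a median of 2.70. The median was 3.35 at PTD 7 and 3.71 at PTD 15, where the mice lay between 2.95 and 4.18 and overlapped the controls. The 4 haematopoietic miRNAs (miR-142-3p, miR-142-5p, miR-150 and miR-223) had medians of 0.66 in the controls and 0.61 at PTD 15, and the 2 endothelial ones (miR-126-3p and miR-126-5p) had 4.81 and 4.84. The haematopoietic median was 1.15 at PTD 30 and 1.64 at PTD 120. At PTD 120 every mouse, between 1.41 and 2.19, lay above the highest control, at 1.29. The part of these cells in the values of the members was not tested.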

How the data were processed

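The authors deposited, for each of the 35 arrays, the Ct of every well as a score that is not normalized, computed by SDS (version 2.3) with a fixed threshold of 0.15 over 40 cycles. Wells were matched to assay names by the study's plate list. The deposited values of PTD 3 replicate 3 differ from that list's column for it, and the deposited ones were used. The reference RNAs, averaged by Ct, were U6, snoRNA142, snoRNA202 and snoRNA251. The 15 wells without a Ct, in 11 arrays and 1 of them for a member, were treated as missing. No filter was used, and a mean Ct of at most 30 would keep 205 miRNAs and 3 of the 7 members.

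Each ENU group was compared with the 7 controls, and neighboring PTDs with each other, in limma (version 3.58.1, R version 4.3.3), two-sided, over all 376 miRNAs with Benjamini-Hochberg adjustment. This was tested on simulated data. The study used t-tests. Differences between assays were tested by exact permutation over the mice, two-sided, with adjustment over 36 comparisons in each family, and their 95% confidence intervals assume a common normal spread within groups. The software was matplotlib 3.10.9, pandas 2.3.3, scipy 1.17.1 and numpy 2.4.6 under Python 3.11.15.

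The named miRNAs were the 7 members, the 3 with the highest r with each, and, of each p53 list, any DEM or else the smallest p. Members and lists were chosen with earlier results of these data known. Groups followed the labels, and run periods followed the month of the run date, with February and March joined as the first. Alternatives were other scalings and reference sets, other treatments of high or missing Ct, a single limma fit, the methods' t-test, adjusted p values, the replicate number as a block, a covariate from the reverse transcription control wells (chosen after seeing the data), subsets of controls or run periods, and leaving out each mouse. Same-numbered mice are different animals. The arrays have no read depth, and their number limits the precision. The p values set each difference against the spread between these mice. In the controls this spread includes the difference between day labels and run periods.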

Additional observations from a re-analysis of the deposited data

Results flagged for a closer look

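In 7 of 49 groups of values (7 members in 7 groups, controls included), 1 mouse stood apart from the others by Dixon's test at the 95% level, where chance alone gives about 1 in 20. For miR-34a, the mouse apart was the highest at PTD 3 (replicate 4, at 2.35 with the next at 1.08), the lowest at PTD 7 (replicate 5, at -2.51 with the next at 1.15) and the highest at PTD 120 (replicate 4, at 0.20 with the next at -0.71). Replicate 4 of PTD 120 was also apart for miR-34b-5p, at -4.77 with the next at -5.64, and for miR-449a, at -8.87 with the next at -11.23. For miR-449a at PTD 15, replicate 4 was the lowest, at -10.77 with the next at -9.28. For miR-34b-3p at PTD 7, replicate 3 was the highest, at -8.21 with the next at -8.70.

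The steps between neighboring PTDs that passed the DEM thresholds were 1.27 for miR-34a from PTD 1 to PTD 3, -2.32 for miR-449a from PTD 15 to PTD 30, -1.5 for miR-34b-5p from PTD 30 to PTD 120 and -1.27 for miR-34a over the same days. After adjustment in limma, the step of miR-449a was the 1 that passed. With the well without a Ct at 40 cycles it was -0.67 and no longer called.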

How the results depend on the processing

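Of the single log2 differences recomputed under the alternatives, 2024 kept their direction and their side of the threshold, 132 lost the call, 38 gained one and 110 changed sign, and of the counts 390 stayed within 1.5 times the reported count and 119 did not. The cause of these moves was not tested, except where fewer mice or miRNAs entered by construction. The number of arrays limits every value, the control spread limits the miR-449 changes, and miR-449a read near the end of the run (mean Ct of 33.2).

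The replicate numbers stand for different animals in each group, and no label says that they mark a litter or batch. Over 42 pairs of same-numbered control and ENU mice, there was a median r of 0.00182 between their deviations (-0.362 to 0.481), with 8 over 0.1. Of these 8, 4 were all the pairs of PTD 3 with the controls labelled day 30 (0.231 to 0.481), whereas with those labelled day 1 none of the 3 pairs of PTD 3 was over 0.1. At PTD 3 the block left 3 members called, as without it, and passed 4 seed pairs in limma in place of 3. With the number as a block all the same, 0 members were called at PTD 1, and the steps to PTD 3, PTD 15 and PTD 120 had 0, 1 and 1, where 1.33%, 3.19%, 1.6% and 0.532% of all miRNAs were called in turn. In that fit miR-449a was at -0.14 at PTD 1 and -0.071 at PTD 30, and miR-34b-3p at 0.13 at PTD 1. Against all 7 controls, limma scaled to the miR-34 member passed 2, 4, 3 and 3 seed pairs at PTDs 1, 7, 15 and 30 and 0 pairs within miR-34 at PTDs 1 and 30, and with the block added it passed 4, 2 and 2 seed pairs at PTDs 7, 15 and 30.

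The reference set changed signs only of small values. Without snoRNA142, miR-449a was at -0.13 at PTD 1 and -0.081 at PTD 30, miR-34b-3p at -0.097 at PTD 30, and the step of miR-449b to PTD 3 was -0.011, with 1 member called at PTD 1 and 0 in the step to PTD 3. Without U6, miR-449a was at -0.017 at PTD 1 and the step to PTD 120 had 1 call. Without snoRNA202, miR-34b-3p was at 0.022 at PTD 1 and the step to PTD 120 had 1 call. Without snoRNA251, the step of miR-449b to PTD 3 was -0.063 and that of miR-449c to PTD 15 was 0.014, and the steps to PTD 3 and PTD 30 had 0 and 2 calls. With the array median as the scale, miR-34b-3p was at 0.28, 0.078 and -0.36 at PTDs 1, 7 and 30, miR-449c at 0.12, -0.0097 and -0.17 at PTDs 3, 30 and 120, miR-449a at -0.34 at PTD 30 and miR-34c at -0.016 at PTD 120. The steps of miR-449b were then -0.052 to PTD 3 and -0.23 to PTD 30, 3 members were called in the step to PTD 30, and 1 pair of neighboring miR-34a levels did not overlap. For these step counts, and for the count at PTD 1 without snoRNA142, the share of all miRNAs was not counted. In the main fits it was 1.33% at PTD 1 and 2.93%, 19.1% and 0.798% in the steps to PTDs 3, 30 and 120. These counts are therefore not read as a result about the members.

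Late or missing Ct values mattered for miR-449a, which at PTD 15 was 0.74 with the missing well at 40 cycles and 8.74 with it at 0. With a Ct above 35 set to 35 it was at -0.064 at PTD 1 and -0.0038 at PTD 30. With wells without a Ct at 40 cycles, its step to PTD 15 was -0.26, its change minus that of miR-34c at PTD 15 was -1.33, and the step to PTD 30 had 0 calls. A filter on a mean Ct of at most 30 kept 3 members and so dropped miR-34c and miR-449a, 2 of the 4 called at PTD 15, which left 2. In that fit 2, 1 and 0 members were called in the steps to PTDs 3, 7 and 30, and the share of the 205 miRNAs kept was 11.7% at PTD 15 and 5.37%, 1.95% and 14.6% in these steps. With the reverse transcription control as covariate, the steps to PTD 3 were -0.15 for miR-449c and -0.11 for miR-449b, the step of miR-34b-3p to PTD 30 was 0.088, and the steps to PTDs 3 and 30 had 0 calls each (1.33% and 5.85% of all miRNAs). A single fit over all groups called 1 member at PTD 1 and 2 and 1 in the steps to PTDs 3 and 120 (1.86%, 6.12% and 0.532% of all miRNAs). With an adjusted p under 0.05, 0 members were called at PTD 1 and 0 in the steps to PTDs 3 and 120.

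The choice of controls changed many signs, also of differences of about 1 on the log2 scale. With only the controls labelled day 30, miR-449a was at -0.82 at PTD 1 and -0.76 at PTD 30, miR-449b at -0.43, -0.41, -0.056 and -0.16 at PTDs 1, 3, 7 and 120, miR-449c at -0.31 and -0.46 at PTDs 30 and 120, and miR-34b-3p at 0.19 and 0.057 at PTDs 1 and 7. The change of miR-449a minus that of miR-34c was -0.32 at PTD 15 and -0.036 at PTD 120, and at PTD 120 it was -0.34 minus miR-34b-5p and -0.57 minus miR-34a. That of miR-34a minus miR-34b-5p was 0.0018 at PTD 30. Seed pairs passing were 3, 6, 3 and 3 at PTDs 1, 3, 7 and 15, with no share of all miRNAs counted, and pairs within miR-34 were 0 at PTDs 1 to 30.

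With only the controls labelled day 1, miR-449c was at 0.51 at PTD 1 and miR-34b-3p at -0.32 at PTD 30, with 0 members called at PTD 1 and 5 at PTD 30. The change of miR-449a at PTD 1 was 0.36 minus that of miR-34c and 0.046 minus that of miR-34a. The change of miR-449c was 0.12 minus that of miR-34c at PTD 30, and at PTD 120 it was 0.67 minus miR-34c, 0.47 minus miR-34b-5p and 0.68 minus miR-34a. The change of miR-34a minus that of miR-34b-5p was -0.17 at PTD 1 and -0.21 at PTD 120, and minus that of miR-34c it was -0.0089 at PTD 120.

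Within 1 run period, miR-449c was at 0.52, -0.18 and -0.32 at PTDs 1, 30 and 120, miR-449a at -0.34 at PTD 30 and miR-34b-3p at 0.081 at PTD 120. The change of miR-449a minus that of miR-34c was 0.093 at PTD 1 and -0.15 at PTD 120. That of miR-34a was 0.13 minus miR-34b-5p at PTD 30 and -0.15 minus miR-34c at PTD 120, and that of miR-34b-5p was -0.51 minus miR-34c at PTD 120. No member was called at PTD 1 (0). With the day 1 controls and within a run period alike, miR-449c was at 0.77 at PTD 3, the change of miR-449a minus miR-34c was 0.30 at PTD 3, miR-449a minus miR-34a was 0.38 at PTD 7 and 0.95 at PTD 15, miR-449a minus miR-34b-5p was 0.74 at PTD 15, miR-449c minus miR-34a was 0.11 at PTD 7, and miR-34a minus miR-34b-5p was -0.081 at PTD 3 and -0.12 at PTD 15. Under both, 0 seed pairs passed at PTDs 3 and 7 and 0 pairs within miR-34 passed at PTDs 1, 3, 7, 15 and 30, in designs with few mice.

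Leaving out each mouse in turn gave signs of both kinds for small changes. The range was -0.36 to 0.32 for miR-449a at PTD 1 and -0.30 to 0.36 at PTD 30, -0.31 to 0.13 for miR-34b-3p at PTD 1 and -0.11 to 0.27 at PTD 30, -0.085 to 0.47 for miR-449b at PTD 1 and -0.062 to 0.50 at PTD 3, and -0.42 to 0.054 for miR-449c at PTD 3. The steps ranged from -0.15 to 0.20 for miR-449b to PTD 3, -0.46 to 0.13 for miR-449a and -0.83 to 0.19 for miR-34a to PTD 7, -0.32 to 0.20 for miR-449c to PTD 15 and -0.28 to 0.14 for miR-449c to PTD 120. Members called ranged from 1 to 2 at PTD 1, and in the steps from 0 to 2 to PTD 3, 0 to 1 to PTD 7, 0 to 1 to PTD 15 and 1 to 2 to PTD 120. The share of all miRNAs called was not counted in the fits that left out a mouse. Seed pairs passing ranged from 0 to 2, 0 to 3, 0 to 2 and 0 to 3 at PTDs 1, 3, 7 and 15, and pairs within miR-34 from 0 to 2 at PTD 1 and 0 to 2 at PTD 120.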
